A study of Mus musculus with 6 samples.

Results

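The 9 genes described here encode the secreted signals that surround spermatogonia in the testis and the receptors for them: the GDNF axis (Gdnf, Gfra1, Ret), the KIT axis (Kitl, Kit), the CSF1 axis (Csf1, Csf1r) and the CXCL12 axis (Cxcl12, Cxcr4). They were taken by name, as every probe set of the array paired with exactly 1 gene symbol that is one of these 9. That gave 23 probe sets of the 45037 that are not controls, for 9 of 18193 genes. Arrays read the messenger RNA of GC1-Spg, a long-established mouse cell line that was made by immortalising spermatogonia. All cultures were grown in DMEM with serum and antibiotics and received 100 nM of siRNA. The 3 control cultures received a scrambled siRNA, and the 3 others received siRNA against mrhl, a nuclear noncoding RNA transcribed from within the Phkb gene. RNA was taken 44 h later, and each culture was read on an array of its own. No untransfected culture is among the samples, and 0 probe sets were paired with mrhl, so the silencing was not read here. A line grown alone lacks the somatic cells that supply these signals in the testis. In bulk RNA of this kind, fewer expressing cells and less RNA per cell cannot be told apart.

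In the testis these 4 axes mostly run from somatic cells to germ cells. GDNF from Sertoli and peritubular cells binds the co-receptor GFRA1, and the pair activates the tyrosine kinase RET on spermatogonial stem cells, which favours self-renewal. KIT ligand, made as a membrane-bound and a soluble form, activates the tyrosine kinase KIT, whose appearance marks differentiating spermatogonia. CSF1 acts through the tyrosine kinase CSF1R, best known from macrophages, and the chemokine CXCL12 acts through the G protein-coupled receptor CXCR4 to keep stem cells at their site. The data were asked, first, which side of each axis the line expresses, and second, whether any of the 9 genes differed between mrhl siRNA and scrambled siRNA.

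In GC1-Spg the ligand side was read well above background for Gdnf and Csf1. The receptor side was read above it for Csf1r, by probe sets with means from 5.76 to 7.16, and Ret, Kit and Cxcr4 were not read above it. The files hold no detection calls. Background was therefore described by 44 probe sets of olfactory receptors, genes best known from the nose. Their silence in these cells was assumed and not tested. Their mean log2 levels had a median of 3.33 and a 95th percentile of 4.65, and 0 of the 44 lay above 5.23, the median of all probe sets. Of all probe sets on the array 58.4% lay above 4.65. Among the members, 13 of 23 probe sets had a mean above 4.65 and 10 had a mean above 5.23. For 3 genes (Gdnf, Csf1, Csf1r) every probe set lay above 4.65. For 3 genes (Gfra1, Kitl, Cxcl12) some did, and for 3 (Ret, Kit, Cxcr4) none did. Probe sets differ in how strongly they bind, so a level places a probe set against background and does not rank one gene's transcript against another's. Where a gene has several probe sets they are counted below from the brightest to the dimmest by their mean over the 6 arrays, the order of the plot of levels, which names each by its array identifier.

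**Figure D1:**
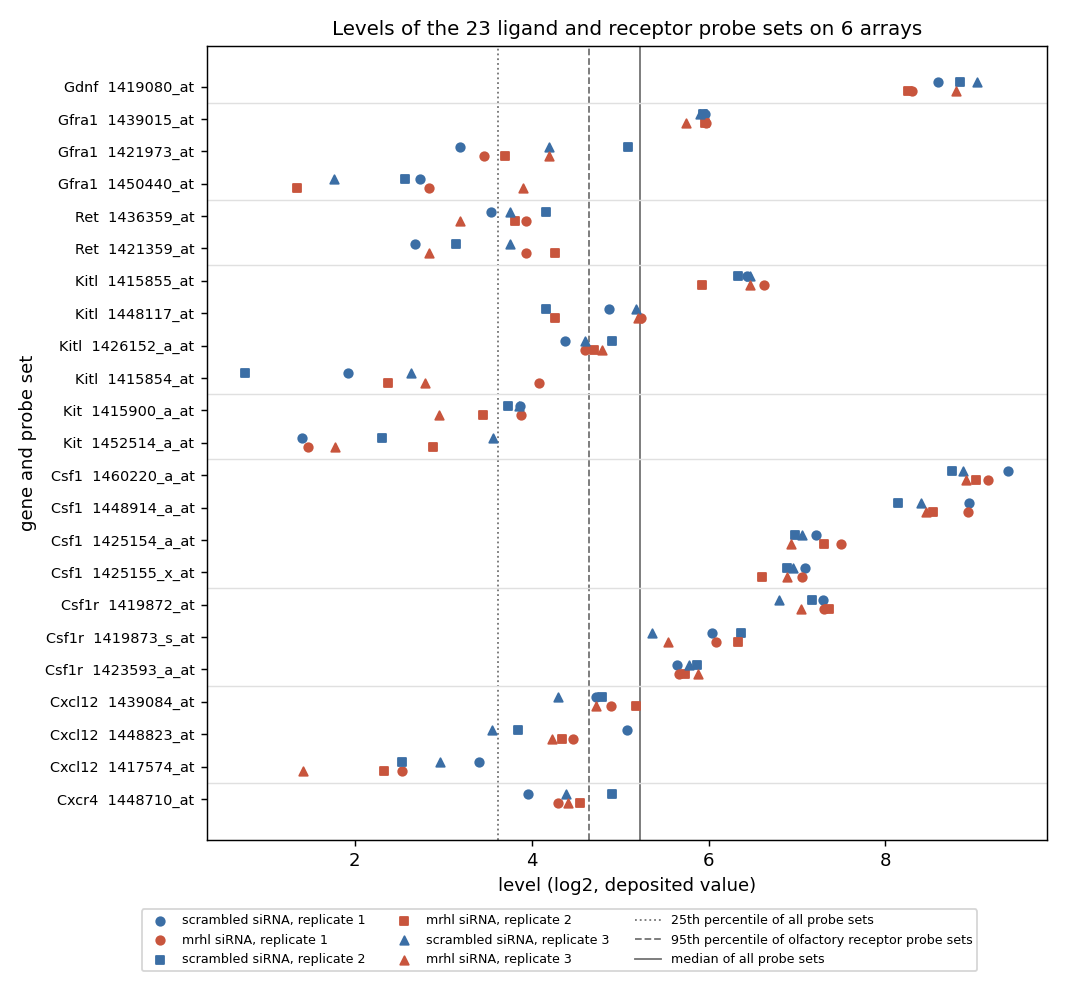
Log2 level (horizontal axis) of each of the 23 probe sets on each of the 6 arrays; colour gives the siRNA and marker shape the replicate number. Vertical lines mark 3.62 (the 25th percentile of all probe sets), 4.65 (the 95th percentile of olfactory receptor probe sets) and 5.23 (the median of all probe sets). All arrays of Gdnf, Csf1 and Csf1r lie to the right of the median line, and all arrays of Ret and Kit lie to the left of 4.65.

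The letters just before the start sites are shown for Gdnf, Kitl and Cxcr4 because they share a TATA box sequence that the choice of genes did not use, and for Csf1 as a clearly expressed ligand without it. Sequences are from RefSeq, build GRCm38.p6, whose promoter windows covered 9 start sites of 7 of the 9 genes. Each line gives the 80 bases before the start, 5′ to 3′ on the gene's strand, with the letters TATAAA in capitals. Gdnf has 2 start sites there, and the line shows the upstream one, at chr15:7809968-7810047 on the plus strand. The others lie at chr10:100015741-100015820 (Kitl, plus strand), chr1:128592300-128592379 (Cxcr4, minus strand) and chr3:107760470-107760549 (Csf1, minus strand).
Gdnf: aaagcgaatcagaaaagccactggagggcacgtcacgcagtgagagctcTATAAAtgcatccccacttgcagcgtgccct
Kitl: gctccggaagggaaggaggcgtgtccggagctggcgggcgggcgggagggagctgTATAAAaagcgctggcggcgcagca
Cxcr4: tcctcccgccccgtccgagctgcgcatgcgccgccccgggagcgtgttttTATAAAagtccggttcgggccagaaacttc
Csf1: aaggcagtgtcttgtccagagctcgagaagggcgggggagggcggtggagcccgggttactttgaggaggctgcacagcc

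The motif TATAAA was searched on the strand of the gene in these 80 bases. It began 31 bases before the start in Gdnf, 25 in Kitl and 30 in Cxcr4, and was found in 3 of the 9 member windows. Of all 32851 windows, 3.37% held it, and 4.75% held it on either strand. In Cxcr4 the reverse complement TTTATA overlaps the forward match. The windows of Csf1, Kit, Cxcl12, Gfra1 and the downstream start of Gdnf did not hold it on either strand. In the 250 bases before the start, the number of CpG dinucleotides ran from 7 at the upstream start of Gdnf to 23 at Kitl, against a median of 6 over all windows. Genes with the motif were found above background (Gdnf), partly above it (Kitl) and not above it (Cxcr4).

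On the GDNF axis, the ligand was the clearly expressed side. Gdnf, the founding member of its ligand family, was read by a single probe set. It stood at log2 levels of 8.59, 8.84 and 9.04 after scrambled siRNA and 8.30, 8.26 and 8.80 after mrhl siRNA. All 6 arrays lay far above background, in the 85.2nd percentile of all probe sets by their mean of 8.64. The mrhl siRNA arrays of numbers 1 and 2 lay below every control, and that of number 3, at 8.80, lay within the controls' range, so the groups overlapped.

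The difference in Gdnf, mrhl siRNA minus scrambled siRNA, was -0.37 on the log2 scale (SE 0.204, 95% interval -0.84 to 0.11). That is a 1.29-fold lower level, and it did not pass (limma, unadjusted p = 0.113, adjusted p = 0.965). This was the smallest adjusted p in the fit, and probe sets of Ret, Kit and Cxcl12 shared it, so it does not rank Gdnf. An unadjusted p under 0.05 (limma) was reached by 1163 of the probe sets tested (3.44%), and Gdnf was not among them. Within pairs of equal replicate number the differences were -0.29, -0.58 and -0.23, so Gdnf was lower in 3 of 3 pairs. When replicate numbers entered the fit as blocks, the 95% interval was -0.68 to -0.049, the unadjusted p was 0.0311 and the adjusted p was 0.487 (limma). Gdnf thus did not pass with or without the block.

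Of the GDNF receptors, Gfra1 was read above background by its brightest probe set and Ret by none. Gfra1, the membrane-anchored co-receptor, had 3 probe sets that disagreed. The brightest stood at 5.96, 5.94 and 5.90 in the controls and 5.97, 5.96 and 5.75 after mrhl siRNA, above the median level on all 6 arrays and with almost no spread. The second stood at 3.19, 5.09 and 4.19 and then at 3.46, 3.70 and 4.20, with 1 of 6 arrays above 4.65. The third ranged from 1.34 to 3.90 with a mean of 2.52 and was too dim to be tested. The 3 probe sets thus placed Gfra1 above background, around it and below the level for testing, and which of them follows the transcript was not tested.

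Differences in Gfra1 between the siRNAs had 95% intervals that spanned 0. That of the brightest probe set was -0.039 (SE 0.137, 95% interval -0.36 to 0.28), the narrowest interval of the members tested. That of the second was -0.37 (SE 0.452, 95% interval -1.42 to 0.69), and it rested on scrambled siRNA replicate 2, without which it was 0.10. Neither passed (limma, adjusted p = 0.983 and 0.965). Ret, the signalling receptor, stood at 3.54, 4.16 and 3.76 in the controls and 3.94, 3.81 and 3.19 after mrhl siRNA by its brighter probe set, with 0 of 6 arrays above 4.65. The difference was -0.17 (SE 0.25, 95% interval -0.76 to 0.41; limma, adjusted p = 0.965). The other probe set of Ret had 2.68, 3.14 and 3.76 and then 3.94, 4.26 and 2.84, and was too dim to be tested.

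No other gene of the GDNF axis passed the test (limma). The list of other ligands and co-receptors had 7 of 8 genes tested, 0 of which passed, with 4 positive and 3 negative differences and a median of 0.04, against -0.033 over all probe sets tested. Its extremes were Gfra2, the neurturin co-receptor, at 0.36 (SE 0.177), and Sorl1, a sorting receptor, at -0.37 (SE 0.153). Of 9 tested adaptors that bind active RET or act next to it, 0 passed, with a median of -0.024. The extremes were Shc1 at 0.49 (SE 0.314) and Gab2 at -0.43 (SE 0.281), both docking proteins. Of 10 genes that respond to GDNF in cultured spermatogonia, each read through its brightest probe set, all lay above 4.65 and 7 above the median level. Of all probe sets 58.4% lay above 4.65, and reading the brightest probe set raises such counts. Lhx1 and Egr2, at 5.11, and Egr3, at 5.17, lay below the median level. Of these 10 genes 0 passed, with 4 positive and 6 negative values and a median of -0.039. Whether GDNF acts on their levels here was not tested. Tspan8, a tetraspanin, had 0.25 (SE 0.234) and Egr2, an early growth response factor, -0.55 (SE 0.318). Ncam1, which can serve as a receptor for GDNF without RET, had a level of 9.57 by the brightest of its 7 probe sets. Its difference there was 0.047 (SE 0.231). It was named for that role after its values were seen, and whether it receives GDNF here was not tested.

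On the KIT axis the ligand was read above background by the brighter probe sets and the receptor by none. Kitl, the gene of KIT ligand or stem cell factor, had 4 probe sets. The brightest stood at 6.44, 6.33 and 6.47 in the controls and 6.63, 5.92 and 6.47 after mrhl siRNA, above the median level on all 6 arrays. The second had 4.87, 4.16 and 5.18 and then 5.24, 4.26 and 5.2. In both groups replicate number 2 was the low array of this probe set, by about as much. The third ranged from 4.38 to 4.91, with 3 of 6 arrays above 4.65. The dimmest had 1.92, 0.76 and 2.64 in the controls and 4.08, 2.37 and 2.79 after mrhl siRNA, below the level for testing.

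The 3 tested probe sets of Kitl had differences of -0.07 (SE 0.205), 0.16 (SE 0.348) and 0.073 (SE 0.175), and none passed (limma, adjusted p = 0.981, 0.974 and 0.978). Their 95% intervals were -0.55 to 0.41, -0.65 to 0.98 and -0.34 to 0.48. The dimmest probe set differed by 1.31, the largest difference of any member, and its groups overlapped. In a fit without a filter on dim probe sets it had an adjusted p of 0.978 (limma). Kit, the receptor, stood at 3.87, 3.73 and 3.86 in the controls and 3.88, 3.45 and 2.95 after mrhl siRNA by its brighter probe set, with a mean of 3.62 that only just reached the level for testing. The difference was -0.39 (SE 0.238, 95% interval -0.95 to 0.17), the lowest of the members tested, and it did not pass (limma, adjusted p = 0.965). The array of mrhl siRNA replicate 3 lay 0.91 below its control, while that of replicate 1 lay 0.015 above. The other Kit probe set ranged from 1.40 to 3.56 and was not tested.

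Adaptors of KIT were mostly read above background, and none passed the test (limma). Of 12 tested adaptors and brakes of the receptor, 11 lay above 4.65 by their brightest probe sets, against 58.4% of all probe sets. Of the 12 genes 0 passed, with 4 positive and 8 negative values and a median of -0.10. Sh2b2, an adaptor, had 0.34 (SE 0.203) and Socs6, which promotes the breakdown of active KIT, -0.22 (SE 0.172). Of 10 transcription factors and proteases that act on Kit or on KIT ligand, 5 lay above 4.65, 8 were tested and 0 passed. Their median was -0.095, with 0.43 (SE 0.365) for Stra8, which retinoic acid induces at differentiation, and -0.18 (SE 0.15) for Mitf, a transcription factor of melanocytes and mast cells. Sohlh1, a factor that activates Kit in spermatogonia, was at 3.29 and was not tested.

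The CSF1 axis was the only one of the 4 read above background on both sides by every probe set. Csf1, the macrophage growth factor, had 4 probe sets. The brightest stood at 9.39, 8.75 and 8.88 in the controls and 9.16, 9.02 and 8.91 after mrhl siRNA. The next stood at 8.94, 8.14 and 8.40 and then at 8.93, 8.54 and 8.46. In both groups replicate number 1 was the highest array of each. The third ranged from 6.93 to 7.50 and the fourth from 6.60 to 7.09. Designs ending in x_at may also bind other transcripts.

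Differences in Csf1 lay on both sides of 0. They were 0.024 (SE 0.200), 0.15 (SE 0.240), 0.15 (SE 0.182) and -0.14 (SE 0.166) from the brightest to the dimmest probe set, and none passed (limma, adjusted p from 0.965 to 0.993). The 95% interval of the brightest ran from -0.44 to 0.49, or from a 0.735-fold to a 1.41-fold level.

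Csf1r, the receptor of CSF1 and of IL34, had 3 probe sets above the median level. The brightest stood at 7.29, 7.17 and 6.80 in the controls and 7.30, 7.36 and 7.05 after mrhl siRNA. The second stood at 6.04, 6.37 and 5.36 and then at 6.08, 6.33 and 5.54. Both were lowest in replicate number 3 of each group. The third had 5.64, 5.87 and 5.78 and then 5.66, 5.73 and 5.88, a range of 0.24 over the 6 arrays. Designs ending in s_at may bind more than 1 gene.

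Csf1r did not differ detectably between the siRNAs. Its differences were 0.15 (SE 0.179), 0.063 (SE 0.304) and -0.0028 (SE 0.143), with adjusted p of 0.965, 0.988 and 0.999 (limma). The 95% interval of the third ran from -0.34 to 0.33. Beside these levels, defining macrophage genes were mostly at background: of 11 macrophage markers 7 lay at or below 4.65 (Ptprc, Aif1, Itgam, Cx3cr1, Cd163, Tyrobp and Fcgr3), and 4 lay above it (Adgre1, Cd68, Lyz2 and Mrc1). The mean level over the 11 ran from 3.80 to 4.51 on the control arrays and from 4.02 to 4.22 after mrhl siRNA. Ptprc, the common leukocyte antigen, was at 2.96, and Spi1, the transcription factor that drives Csf1r in macrophages, was at 4.47. Cd68, at 8.82, also marks lysosomes of other cells.

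No other gene of the CSF1 axis passed the test (limma). Of 13 genes on the array 7 lay above 4.65, 12 were tested and 0 passed, with 7 positive and 5 negative values and a median of 0.0094. The extremes were Csf2rb, the shared beta chain of related cytokine receptors, at 0.35 (SE 0.259), and Cbl, a ubiquitin ligase that turns over CSF1R, at -0.19 (SE 0.15). Il34, the other ligand of CSF1R, was at background with a level of 4.0, and it is named for its role after its value was seen.

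The CXCL12 axis was dim on both of its listed sides. Cxcl12, the chemokine also known as SDF-1, had 3 probe sets. The brightest stood at 4.73, 4.79 and 4.30 in the controls and 4.90, 5.18 and 4.73 after mrhl siRNA, with 5 of 6 arrays above 4.65 and 0 above the median level. The second had 5.08, 3.84 and 3.55 and then 4.47, 4.34 and 4.23, with the highest and the lowest values both among the controls. The third had 3.40, 2.53 and 2.96 and then 2.53, 2.33 and 1.41, and was too dim to be tested.

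The brightest Cxcl12 probe set had the largest positive difference of the members tested, 0.33 (SE 0.196, 95% interval -0.13 to 0.79; limma, adjusted p = 0.965). Within pairs of equal number it was 0.17, 0.39 and 0.44, higher in 3 of 3 pairs, though the groups overlapped. When replicate numbers entered the fit as blocks, the 95% interval was 0.033 to 0.63, with an unadjusted p of 0.0354 and an adjusted p of 0.487 (limma). The second probe set had the same direction, 0.19 (SE 0.370), with pairs of -0.61, 0.50 and 0.68, and without scrambled siRNA replicate 1 it was 0.65. The third had the opposite direction, -0.87, with all 3 pairs negative. Cxcr4, the receptor, stood at 3.96, 4.91 and 4.39 in the controls and 4.30, 4.55 and 4.41 after mrhl siRNA, with 1 of 6 arrays above 4.65. The difference was 0.0012 (SE 0.244, 95% interval -0.57 to 0.57; limma, adjusted p = 1).

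Most genes in the list of CXCL12 scavenger, transducers and regulators were bright by their brightest probe sets. Of all probe sets 58.4% lay above 4.65. Of the 14 genes on the array 13 did, and 12 lay above the median level. Whether they act in CXCL12 signalling in this line was not tested. All 14 were tested and 0 passed, with 6 positive and 8 negative values and a median of -0.046. Dpp4, the protease that clips CXCL12, was the exception at a level of 3.74 and had the largest difference, 0.32 (SE 0.210). Gnai3, a G protein subunit, had the smallest, -0.22 (SE 0.143). Ackr3, the scavenging second receptor of CXCL12, was at 7.81 with a difference of 0.074 (SE 0.251); like Ncam1 it is named for its role after its values were seen.

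**Figure D2:**
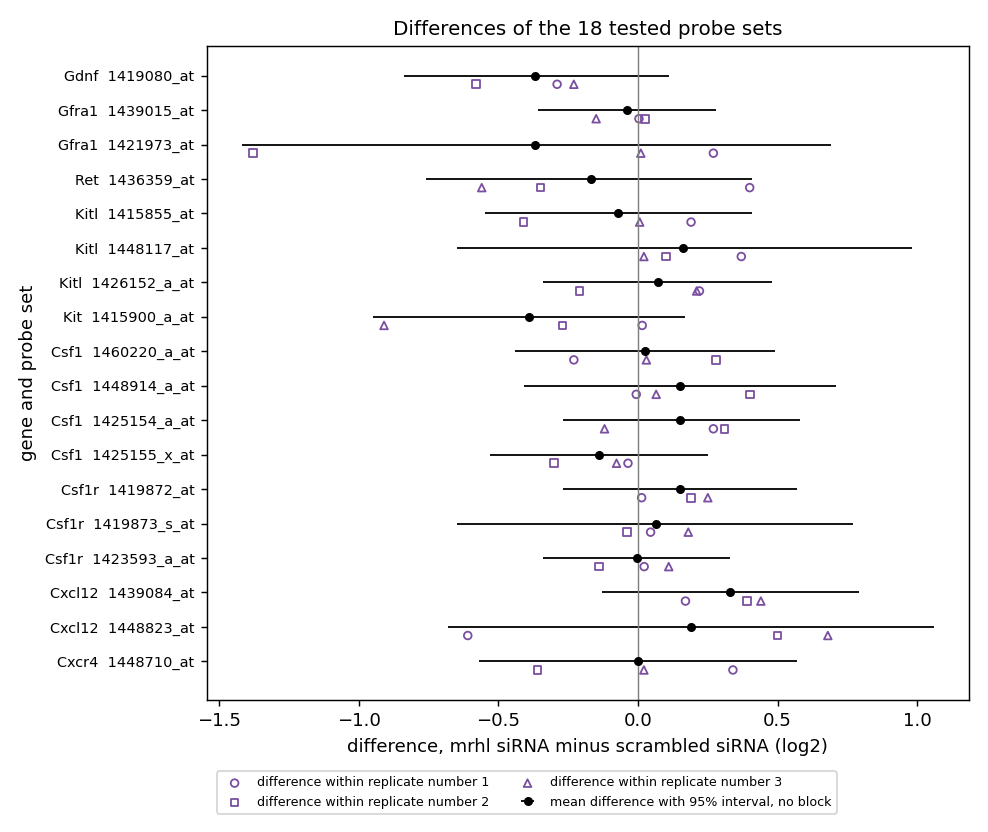
Difference between mrhl siRNA and scrambled siRNA (log2, horizontal axis) for the 18 probe sets bright enough to be tested; black dots with lines are the mean difference and its 95% interval without a block, and open markers the differences within each replicate number. Every interval spans 0, and the means run from -0.39 for Kit to 0.33 for Cxcl12.

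Across the axes, no ligand or receptor passed the test (limma). Of the 23 probe sets 18 reached the level for testing, a mean of at least 3.62, and 0 of the 18 had an adjusted p under 0.05 (limma), as had 0% of all 33778 probe sets tested. At an unadjusted p under 0.05 (limma) there were 0 of 18, against 3.44% of all. The 18 comprised 10 positive and 8 negative differences with a median of 0.013, where all probe sets tested had 14810 positive and 18968 negative with a median of -0.033. The groups were fully apart in 0 of the 18, against 8.4% of all probe sets tested, and in 0 of the 5 that were not tested.

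In the fit with replicate numbers as blocks, again 0 of 18 members and 0% of all passed (limma). Under an unadjusted p of 0.05 there were 2 members, Gdnf and Cxcl12, or 11.1%, close to the 10.1% of all probe sets tested (limma, 3411 probe sets). Lower in 3 of 3 pairs were 2 members (Gdnf and the fourth Csf1 probe set), or 11.1%, against 23.4% of all. Higher in 3 of 3 pairs were 3 (Cxcl12, the second Kitl probe set and the brightest Csf1r probe set), or 16.7%, against 14.1%. These shares are near or below those of the whole array and set no group of members apart.

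A larger share of the spread lay between replicate numbers than between siRNAs in the tested members, and in part of the dim ones. The spread of a probe set over its 6 arrays, as a sum of squares around its mean, was divided into the part between siRNAs, the part between replicate numbers and the rest. In all 18 tested members the number took the larger part, with a median of 66.6% against 6.78% for the siRNA. Over all probe sets tested the medians were 57.8% and 12.7%, and the number took the larger part in 79.5%. The number has 2 degrees of freedom here and the siRNA 1, so on average the number takes the larger share even where neither has an effect. The clearest case was the second Csf1r probe set, with 97.8% between numbers and 0.702% between siRNAs, followed by the second Kitl probe set with 93.9% and 3.36%. For the brighter Kit probe set the parts were about equal, 33.5% and 33.4%. Of the 5 probe sets too dim to be tested, 3 had the larger part between siRNAs. These were the dimmest of Ret (17.5% against 10.1% between numbers), of Kitl (43% against 38.7%) and of Cxcl12 (51.1% against 28.6%). For Gdnf the parts were 51.3% between numbers and 41.6% between siRNAs, and for the brightest Cxcl12 probe set 55.3% and 39.8%. Per degree of freedom the siRNA took the larger part in both of these and in the brighter Kit probe set.

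**Figure D3:**
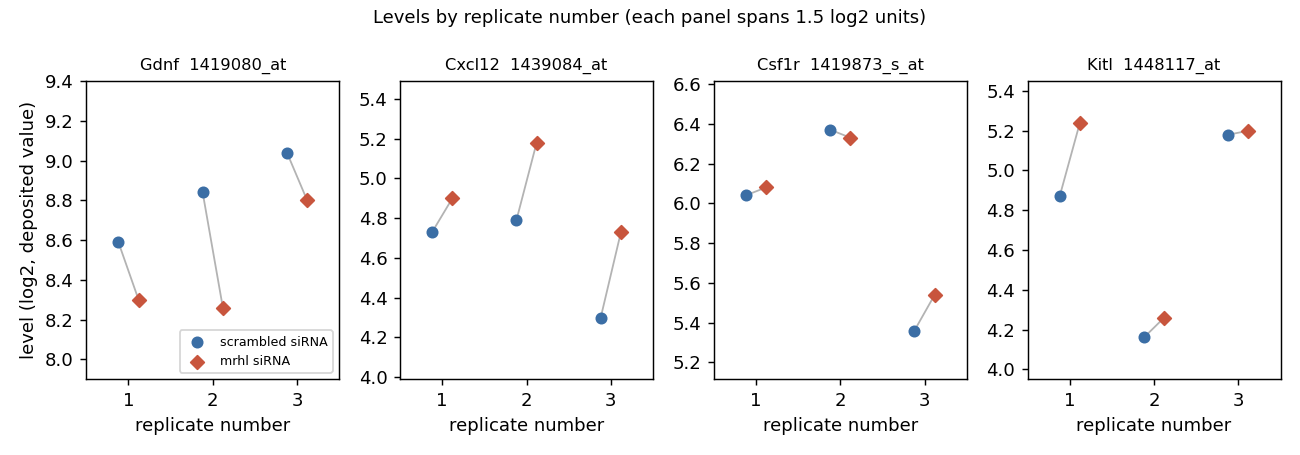
Log2 level (vertical axis) by replicate number for 4 probe sets, blue circles after scrambled siRNA and red diamonds after mrhl siRNA, with lines joining equal numbers. The 2 on the left have the smallest unadjusted p with the block and move in 1 direction in 3 of 3 pairs (Gdnf lower, Cxcl12 higher); the 2 on the right have the largest part of their spread between numbers, and replicate number 3 (Csf1r) or 2 (Kitl) is low after both siRNAs.

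The genes nearest to some members over the 6 arrays were looked up. Likeness was taken as the root mean square difference of log2 values, each centred on its own mean, for the 9 member probe sets that ranged over more than 1 log2 unit. The second Csf1r probe set was nearest to Wnt7a (0.061) and Ccr9 (0.079), which were also lowest in replicate number 3 of both groups. The second Kitl probe set was nearest to Guca1a and Zfp882 (0.12 each). The second Gfra1 probe set was nearest to Ccdc39 (0.12) and Sag (0.15), and the second Cxcl12 probe set to Mettl7a2 (0.12) and Ppm1n (0.13). For the 5 probe sets too dim to be tested the nearest genes were farther. They were Nrk (0.39) and Fam13a (0.45) for Gfra1, Pdia2 (0.23) and Krt24 (0.26) for Ret, and Arhgap10 (0.54) and Grik5 (0.55) for Kitl. They were Capn12 and Smco3 (0.44 each) for Kit, and Nkx2-2 and Kng1 (0.28 each) for Cxcl12. These genes were picked as the nearest of many over 6 arrays. A close match thus follows from the search, and this is a description only.

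The label of the line was set against marker genes, because the niche signals are made by some testis cells and received by others. Of 14 markers of undifferentiated spermatogonia on the array, 7 lay above 4.65 (Zbtb16, Id4, Uchl1, Utf1, Foxo1, Itga6 and Epcam). The other 7 (Lin28a, Sall4, Ddx4, Dazl, Pou5f1, Cdh1 and Thy1) did not, so the germ cell genes Ddx4, at 2.37, and Dazl, at 3.35, were at background. Of 7 markers of differentiating spermatogonia 3 lay above 4.65 (Sohlh2, Dmrtb1 and Dnmt3b) and 0 above the median level, and Stra8, Sohlh1, Rhox13 and Prdm9 did not. Read through their brightest probe sets, 7 of 14 and 3 of 7 genes lay above 4.65. Of all probe sets 58.4% did, a share that reading the brightest probe set does not raise. Levels in the undifferentiated list ran from 2.35 for Thy1 to 10.30 for Itga6. The lists were thus mixed, and whether the line keeps the germ cell identity given in the labels was not tested. The mean level of the undifferentiated list ran from 5.05 to 5.39 in the controls and from 4.99 to 5.30 after mrhl siRNA.

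Markers of Sertoli cells, the usual source of GDNF and KIT ligand, were also partly read above background. Of all probe sets 58.4% lay above 4.65, and of 12 Sertoli markers on the array, by their brightest probe sets, 10 did. They ran from Amh at 4.96 and Inha at 5.05, close to that level, to Sox9 at 7.19, Wt1 at 10.76 and Clu at 12.22, while Fshr, the receptor for follicle-stimulating hormone, at 3.72, and Cldn11, at 3.78, were at background. These 7 were named after their values were seen, and Clu is also made by many other cells. Cldn11 had the largest difference, 0.26 (SE 0.353), and Dhh the smallest, -0.63 (SE 0.252), and 0 of 12 passed (limma). The list's mean level ran from 6.73 to 6.91 in the controls and from 6.71 to 6.84 after mrhl siRNA. Its part in the levels of Gdnf and Kitl was not tested.

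Markers of the remaining cell types were mostly at background. Of 6 Leydig markers 1 lay above 4.65 (Star), and of 5 mast cell markers, cells known for KIT, 1 did (Ms4a2, at 4.76). Of 5 peritubular myoid markers 2 did, Acta2 at 10.69 and Des at 5.46, while Myh11, Cnn1 and Tagln did not. Of 6 endothelial markers 3 did (Cdh5, Kdr and Emcn), and Pecam1, at 1.72, did not. None of the tested genes of these lists passed, nor did any of the macrophage, undifferentiated or differentiating lists (limma). The extremes were Cyp11a1 at 0.38 and Hsd17b3 at -0.29 for Leydig cells, Fcer1a at 0.53 and Ms4a2 at -0.023 for mast cells, and Myh11 at 0.49 and Tagln at -0.69 for myoid cells. They were Emcn at 0.35 and Kdr at -0.29 for endothelium and Tyrobp at 0.14 and Mrc1 at -0.58 for macrophages. For spermatogonia they were Cdh1 at 0.22 and Sall4 at -0.17 in the undifferentiated list and Stra8 at 0.43 and Dnmt3b at -0.37 in the differentiating list.

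**Figure D4:**
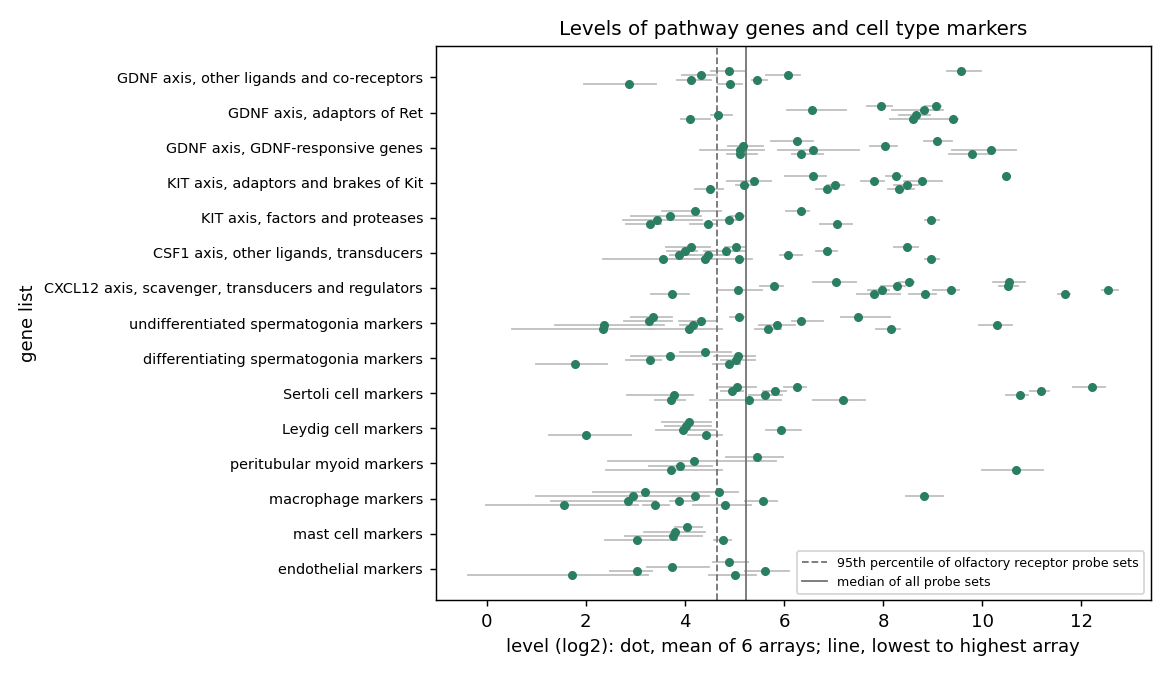
Mean log2 level over the 6 arrays (dots, with lines from the lowest to the highest array) of the genes in each pathway and marker list, each gene read through its brightest probe set; vertical lines mark 4.65 and 5.23. All 10 GDNF-responsive genes (7 of them above 5.23) and 13 of 14 genes of the CXCL12 list lie above 4.65. So do 10 of 12 Sertoli markers but 4 of 11 macrophage and 1 of 5 mast cell markers. Of all probe sets 58.4% lay above 4.65, and reading the brightest probe set raises such counts.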

How the data were processed

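The deposited table holds 1 log2 expression value for each probe set on each array. GCOS and PLIER are named per the submitters' processing notes; versions, settings, background correction and normalization were not given in the sources used here. That values are on a log2 scale was judged from their range, which includes negative ones. Array medians ran from 5.19 to 5.30, so the values were used as deposited. The probe table paired 34945 probe sets with 1 symbol, 932 with several (not named) and did not list 9160; 64 control rows were left out.

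Probe sets with a mean under the 25th percentile, 3.62, were not tested, which left 33778. Both groups entered a single limma 3.58.1 model (lmFit, eBayes) in R 4.3.3, two-sided, with Benjamini-Hochberg adjustment over all 33778 and a threshold of 0.05. Pathway and marker genes were read through their brightest probe set paired with them alone. In those lists the tested gene with the largest and the smallest difference is named; genes named for lying above or at background, or for a role (Ncam1, Il34, Ackr3, Spi1, Sohlh1), were chosen after their values were seen. The fit was run on simulated arrays with independent noise, without any part shared by equal replicate numbers. That run checks the code and does not show which changes the real arrays could detect.

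The members, lists and rules were chosen with earlier results of these data known. The labels call the replicates biological. Deviations of arrays of equal replicate number from their group means correlated at 0.534, 0.201 and 0.567, all over 0.1. Those of unequal numbers correlated at -0.518 to 0.0684. Deviations cancel out within a group, so positive values for equal numbers go with negative ones for unequal numbers. Pairs and the block fit are therefore given beside the main fit, which had no block and left the part between numbers in its error. The design text speaks of 3 experiments but does not tie numbers to them, so the pairing rests on these same values. The number of arrays limits the precision: without a block the median SE of a member was 0.204. Alternatives were quantile normalization, equal medians, other filters, array weights, the replicate block, each array left out, a robust fit with a trended variance, an offset of 16 and gene-level means over probe sets. Figures were drawn with matplotlib 3.10.9.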

Additional observations from a re-analysis of the deposited data

How the results depend on the processing

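Over 14 alternative settings 0 probe sets passed an adjusted p of 0.05 (limma), with or without the replicate block, and 674 to 3411 had an unadjusted p under 0.05. The lowest adjusted p of any member was 0.487 (limma, replicate block). Of 244 member values, 219 kept their direction and 25 turned it, 21 of these when 1 array was left out; all of them belong to differences that did not pass. Without a filter the 5 dim probe sets had no call either. Leaving out each array in turn, the differences of Gdnf (-0.54 to -0.26), Kit (-0.62 to -0.15) and the brightest Cxcl12 probe set (0.18 to 0.43) kept their direction, as did the 2 dimmest probe sets of Csf1 and the brightest of Csf1r. Ranges that cross 0 were -0.076 to 0.032 and -0.85 to 0.10 for Gfra1, -0.32 to 0.054 for Ret, and -0.22 to 0.14, -0.13 to 0.48 and -0.053 to 0.21 for Kitl. They were -0.11 to 0.22 and -0.025 to 0.37 for Csf1, -0.22 to 0.29 and -0.065 to 0.05 for Csf1r, -0.11 to 0.65 for the second Cxcl12 probe set and -0.23 to 0.25 for Cxcr4. Fewer arrays are the only change there. The third Csf1r probe set was 0.016 after quantile normalization and 0.0083 with equal medians, and Cxcr4 was -0.017 with array weights and -0.011 with the offset. As the mean of its probe sets Kitl was 0.37 and Cxcl12 -0.12, where the dimmest probe sets enter. The cause of the other turns was not tested.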
